A study of Mus musculus with 6 samples.

Results

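Cpxm1, Pamr1, Dkk3 and Mamdc2 encode secreted proteins of mesenchymal cells, and each was measured by 1 probe on 6 two-colour arrays of cultured mouse airway smooth muscle cells. They are 4 of the 5644 named genes that could be fitted, and every probe annotated with one of these symbols was used. The 4 genes were chosen from the high ratios they show on these same arrays, so their ratios are given as a description and were not tested. All 4 had values on all 6 arrays, so the filter on missing values removed no member.

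Each array set RNA of cells from mice overexpressing the beta2-adrenergic receptor (2AR-OE, TG) against RNA of cells from nontransgenic mice (NTG). Both kinds of cell grew out of tracheal explants in medium with 20% FCS, and RNA was taken between passages 8 and 10. The labels do not name the promoter of the transgene, the strain or the age of the mice, and they do not say whether the arrays come from separate cultures or animals. On arrays 1C and 2C the transgenic RNA was labelled with Cy3, and on 1A, 1B, 2A and 2B with Cy5. Set 1 means the arrays whose title has a 1, and set 2 those with a 2. Differences between replicate arrays may be technical, and p-values measure only the spread between these arrays. Over 90% of the cells were positive for smooth muscle actin, per the labels. The comparison addresses gene expression under a surplus of this receptor, which raises cyclic AMP through the stimulatory G protein.

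Ratios are log2, as deposited, and probably have the transgenic RNA as numerator, since it is in channel 1 of the 4 unswapped arrays and is the test condition. The titles of those 4 arrays put nontransgenic RNA first and the titles of the swapped arrays put transgenic RNA first, so the direction is not settled, and every "higher" reads "lower" if the ratio is the reverse. The columns of 1C and 2C were taken as already turned to the same direction. Of 32 probes above 2-fold on all 4 Cy5 arrays, all 32 were also above 0 on both swapped arrays. The 4 chosen genes are among these 32. Of 15 probes lower by more than 2-fold on all 4 Cy5 arrays, however, 8 kept their sign and 6 turned on both. Across probes, ratios correlated with r from 0.313 to 0.697 between arrays of the same orientation (7 pairs) and from 0.00887 to 0.179 between opposite orientations (8 pairs).

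As background, secreted proteins of mesenchymal cells fill the space between cells and tune how matrix and growth factors act there. Cpxm1 is a secreted relative of the metallocarboxypeptidases that binds collagen. Pamr1 carries CUB, sushi and trypsin-like domains and is named for its link to regenerating muscle. Dkk3 is the most divergent member of the Dickkopf family, whose founding member blocks co-receptors of the Wnt pathway. Mamdc2, also called mamcan, is a secreted proteoglycan built of MAM domains. None of these genes defines smooth muscle, the cell layer that narrows and relaxes the airway.

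Cpxm1 had the highest fitted ratio of the group. Its log2 ratios were 3.41 on array 1A, 2.55 on 1B, 2.25 on 1C, 2.40 on 2A, 1.98 on 2B and 1.66 on 2C. All 6 arrays lay above 0, 1A stood highest and 2C lowest. The limma fit with a dye term gave a transgenic log2 ratio of 2.27 ± 0.21 (SE, n = 6), a 4.83-fold ratio. This ranked 3rd of the 5644 named genes, and would rank 210th if the swapped columns were not turned. Cpxm1 lay above Dkk3 on 6 of 6 arrays, by 0.46 to 1.15, and above Pamr1 and above Mamdc2 on 5 of 6 each.

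Cpxm1 was the member matched in the RefSeq promoter table (GRCm38.p6), so its upstream sequence is shown to let the motif counts be read against the letters. The window is the 250 bases before the annotated start, chr2:130397630-130397879 on the minus strand, written 5′ to 3′ with matches to the GC box GGGCGG, on either strand, in capitals.
Cpxm1: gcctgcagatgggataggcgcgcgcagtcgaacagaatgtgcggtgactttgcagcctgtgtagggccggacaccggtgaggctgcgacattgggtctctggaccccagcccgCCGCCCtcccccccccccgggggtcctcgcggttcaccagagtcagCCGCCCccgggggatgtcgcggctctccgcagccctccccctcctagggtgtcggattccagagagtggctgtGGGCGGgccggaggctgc
The window held 3 GC boxes, at least 1 of which is found in 32.7% of the 32851 windows of this length in the table. It held 0 matches to the cyclic AMP response element TGACGTCA (present in 1.55% of windows), 0 to its core TGACG, which lies within that element (17.8%), and 0 to TATAAA (12.4%), all searched on both strands. Its GC content was 70.8%, above that of 91.7% of windows, and it held 21 CpG dinucleotides against a median of 6. These are letters in the sequence and not measured binding.

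Pamr1 followed with a wider spread. Its log2 ratios were 2.39 on 1A, 2.85 on 1B, 0.91 on 1C, 1.97 on 2A, 1.70 on 2B and 1.19 on 2C. All were above 0, and both swapped arrays lay below every Cy5 array. The fitted log2 ratio was 1.64 ± 0.17, or 3.11-fold.

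Dkk3 was the most even of the 4 genes from array to array, with an SD of 0.42 over the 6 arrays against 0.60 for Cpxm1, 0.73 for Pamr1 and 1.05 for Mamdc2. Its log2 ratios were 2.26 on 1A, 2.09 on 1B, 1.63 on 1C, 1.69 on 2A, 1.48 on 2B and 1.11 on 2C. The fitted log2 ratio was 1.63 ± 0.14, or 3.08-fold.

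Mamdc2 was the least even. Its log2 ratios were 3.76 on 1A, 1.23 on 1B, 0.99 on 1C, 2.00 on 2A, 1.96 on 2B and 1.01 on 2C. Array 1A stood far above the rest, and the arrays of set 1 held both its highest and its lowest value. The fitted log2 ratio was 1.62 ± 0.33, or 3.07-fold, and without 1A it was 1.36 ± 0.14. Pamr1, Dkk3 and Mamdc2 differed in fitted log2 ratio by less than any of their standard errors, and their order changed from array to array.

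**Figure D1:**
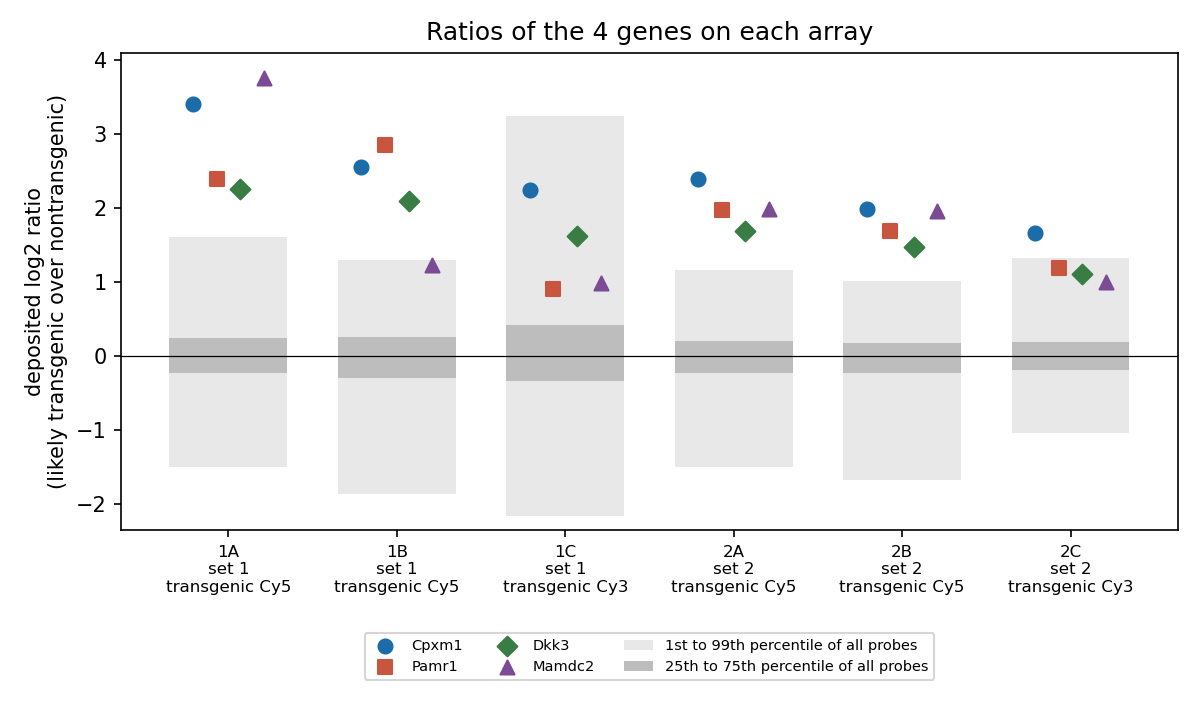
Deposited log2 ratios (y axis) of Cpxm1, Pamr1, Dkk3 and Mamdc2 on each of the 6 arrays (x axis), 1 point per gene and array; grey bars span the 1st to 99th and the 25th to 75th percentile of all probes of that array. All 4 genes lie above the 99th percentile on 1A, 2A and 2B, 3 on 1B, 1 on 2C and 0 on 1C, the array with the widest spread.

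How far the genes stood out depended on the array. The spread of all probes, as a robust SD (the median absolute deviation scaled to an SD), ran from 0.281 on 2C to 0.547 on 1C, and 16.0% of probes on 1C lay beyond 2-fold against 2.97% on 2C and 5.24% to 7.57% on the others. On array 2A, Cpxm1 had the 5th highest ratio of all probes, Mamdc2 the 9th, Pamr1 the 11th and Dkk3 the 23rd. On array 1C, 3.22% of probes had a higher ratio than Cpxm1, 6.06% than Dkk3, 11.7% than Mamdc2 and 12.7% than Pamr1. On the remaining arrays that share was at most 1.85% for any of the 4 genes. In units of each array's robust SD, Cpxm1 ranged from 4.12 (1C) to 9.75 (1A) and Mamdc2 from 1.81 (1C) to 10.7 (1A).

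In all, 274 of 6807 fitted rows (4.03%) had a higher ratio at a limma adjusted p under 0.05 (Benjamini-Hochberg over all rows), and 210 (3.09%) a lower one. The members were chosen for this same contrast, so nothing is read from their place among these rows. If the swapped columns were not turned, the fitted transgenic log2 ratios would be 0.32 for Cpxm1, 0.59 for Pamr1, 0.26 for Dkk3 and 0.62 for Mamdc2. Their ranks among the 5644 named genes would be 210, 65, 379 and 62 in that order.

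The dye comparison asked whether a ratio differed with the dye that carried the transgenic RNA. It is not independent of the choice of the genes, because 4 of the 6 arrays carry transgenic RNA in Cy5 and a high mean over the arrays favours a positive dye term, so it is given as a description. All 4 genes had higher mean ratios with transgenic RNA in Cy5. Pamr1 was at 2.23 ± 0.51 (SD, n = 4) in Cy5 and 1.05 ± 0.19 (n = 2) in Cy3. Mamdc2 was at 2.24 ± 1.08 in Cy5 and 1.00 ± 0.01 in Cy3. For these genes the orientations did not overlap, as was so in the same direction for 1145 of 6756 rows with all values (16.9%). Cpxm1 was at 2.59 ± 0.60 and 1.96 ± 0.42 and Dkk3 at 1.88 ± 0.36 and 1.37 ± 0.37, each with overlapping arrays. The dye term, which is added with transgenic RNA in Cy5 and subtracted otherwise, was 0.59 ± 0.17 (SE) for Pamr1, 0.62 ± 0.33 for Mamdc2, 0.32 ± 0.21 for Cpxm1 and 0.26 ± 0.14 for Dkk3. If the swapped columns were not turned, the dye and transgenic terms would change places, and the dye terms would be 1.64, 1.62, 2.27 and 1.63 in that order. Among all rows limma called 1 for dye (0.0147%), and 1242 had an unadjusted p under 0.05.

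The set comparison, with 2 Cy5 arrays and 1 Cy3 array in each set, asked whether the ratio differed between arrays numbered 1 and 2. The choice of the genes bears on this comparison too. The arrays of set 1 had wider spreads, so a high mean over the arrays favours higher values in set 1. The values and p-values of the members are therefore given as a description, and nothing is concluded from them. All 4 genes had lower means in set 2, and none passed the threshold. Cpxm1 was at 2.74 ± 0.60 (SD, n = 3) in set 1 and 2.02 ± 0.37 (n = 3) in set 2. Dkk3 was at 2.00 ± 0.33 in set 1 and 1.42 ± 0.29 in set 2. Within each dye orientation, every set 1 array of these genes lay above every set 2 array, as was so for 1572 of 6756 rows with all values (23.3%). Pamr1 was at 2.05 ± 1.01 in set 1 and 1.62 ± 0.40 in set 2. Mamdc2 was at 1.99 ± 1.54 in set 1 and 1.65 ± 0.56 in set 2. In Pamr1 and Mamdc2 the lowest set 1 array, 1C, lay below all set 2 arrays.

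Fitted set differences (set 2 minus set 1) were -0.57 ± 0.11 (SE) for Dkk3, -0.72 ± 0.27 for Cpxm1, -0.44 ± 0.28 for Pamr1 and -0.34 ± 0.70 for Mamdc2. Their limma adjusted p-values over all rows were 0.0769, 0.207, 0.41 and 0.792. Among all 6807 rows limma called 0 (0%), and 1616 (23.7%) had an unadjusted p under 0.05. The arrays of set 1 also had wider spreads, with robust SDs of 0.350 to 0.547 against 0.281 to 0.319 in set 2. With the arrays scaled to equal spread, the set difference was 0.00 ± 0.42 for Cpxm1, 0.08 ± 0.29 for Pamr1, -0.04 ± 0.20 for Dkk3 and 0.10 ± 0.77 for Mamdc2. After scaling the set means differed little, but the arrays went different ways. In units of each array's robust SD, all 4 genes were lower on 1C than on 2C, as for Pamr1 (1.67 and 4.23) and Cpxm1 (4.12 and 5.92). On the Cy5 arrays Pamr1 stayed higher in set 1, at 6.84 and 6.94 against 6.17 and 5.78. The other genes overlapped there, as for Cpxm1 at 9.75 and 6.21 against 7.51 and 6.77.

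**Figure D2:**
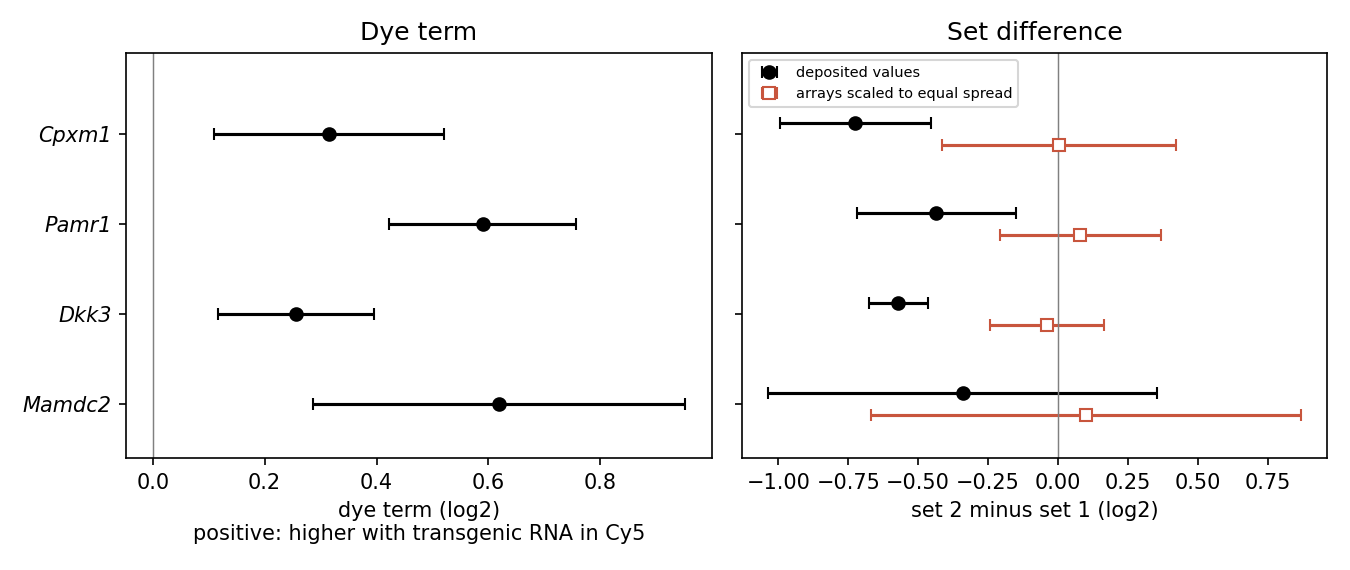
Dye term (left) and difference of set 2 minus set 1 (right) of each gene on the log2 scale, with the standard errors of the limma fit as bars; filled points are the deposited values and open squares the values with arrays scaled to equal spread. All dye terms are above 0, and the set differences of -0.34 to -0.72 lie between -0.04 and 0.10 after scaling.

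A lower ratio in set 2 was common among the other rows with high ratios. Of the 38 other rows called higher and beyond 2-fold, 31 had a negative set difference (median -0.39), and 24 had a positive dye term (median 0.07). Of the 28 rows called lower and beyond 2-fold, 13 had a negative set difference (median 0.03), and 27 had a positive dye term (median 0.19). Over all 6807 rows, 3879 set differences were negative (median -0.06) and 3402 dye terms were positive.

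Genes with the most similar ratios were found by the root mean square difference over the 6 arrays among 5613 other named genes with all values; this measure favours genes of the same size of ratio. Nearest to Cpxm1 were Ly6c1, a surface antigen (0.328), C1ra, a protease that starts the classical complement pathway (0.336), and 9030619P08Rik (0.526). Nearest to Dkk3 were Cst3, the protease inhibitor cystatin C (0.254), Rasl11a, a Ras-like GTPase (0.261), and Tnc, the matrix protein tenascin C (0.318). Both lists hold other genes with high ratios on all 6 arrays.

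Pamr1 had Dkk3 as its nearest gene (0.456), followed by Rasl11a (0.582) and C1ra (0.588). Nearest to Mamdc2 were C1ra (0.575), Dkk3 (0.789) and Tbc1d2b, a GTPase-activating protein (0.814). C1ra is thus among the nearest genes of Cpxm1, Pamr1 and Mamdc2, and like Mamdc2 it had its highest ratio on 1A (3.20). Among the members, Dkk3 ranked 5th, Pamr1 7th and Mamdc2 8th in likeness to Cpxm1. For Dkk3 the order was Pamr1 at rank 7, Cpxm1 at 20 and Mamdc2 at 33. After Dkk3, Pamr1 had Cpxm1 at rank 11 and Mamdc2 at 17, and Mamdc2 had Cpxm1 at rank 4 and Pamr1 at 8.

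**Figure D3:**
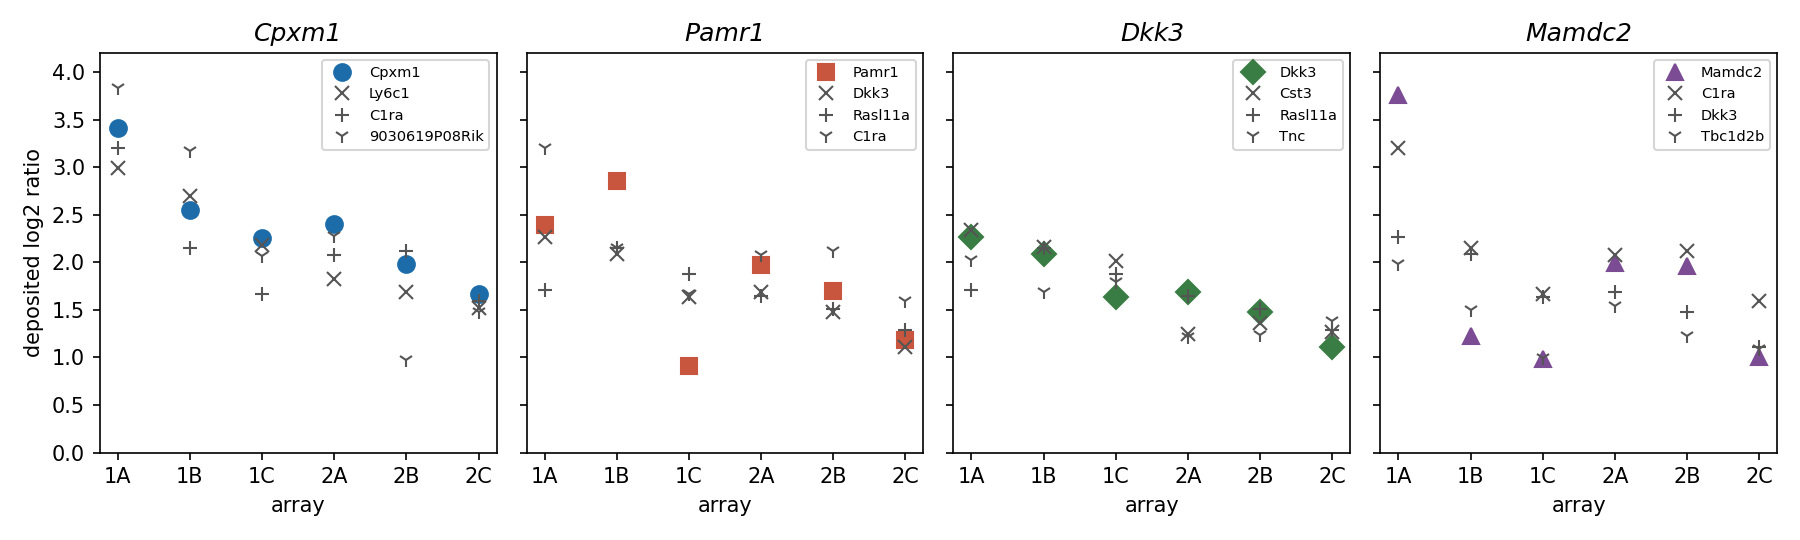
Deposited log2 ratios (y axis) on the 6 arrays (x axis) of each member gene (coloured) and of the 3 genes with the smallest root mean square difference from it (grey symbols). The nearest gene differs by 0.254 from Dkk3, 0.328 from Cpxm1, 0.456 from Pamr1 and 0.575 from Mamdc2.

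The measured genes nearest to the 4 members on the chromosome did not pass the test. For each member the nearest measured protein-coding gene on either side was taken from the gene order of GRCm38.p6, a choice by position and not by value. From 0 genes (Fjx1 and Pamr1) to 12 genes (Dock8 and Mamdc2) lay between a member and its measured neighbour. Of these 8 genes 0 passed by limma, with adjusted p from 0.0553 to 0.958, against 7.11% of all rows in either direction. With so few genes this count is near that share, and nothing is read from it. Beside Pamr1, Fjx1 was at -0.57 ± 0.13 and Cd44, the hyaluronan receptor, at -0.41 ± 0.14. Beside Cpxm1, Idh3b, a subunit of isocitrate dehydrogenase, was at 0.08 ± 0.08 and Ptpra, a receptor phosphatase, at 0.54 ± 0.25 (0.05 without 1C). Beside Dkk3, Parva, the adhesion protein alpha-parvin, was at -0.01 ± 0.06 and Lyve1 at -1.41 ± 0.88 (0.29 without 1C, where it is at the floor of the table). Beside Mamdc2, Klf9, a transcription factor, was at 0.30 ± 0.07 and Dock8 at 0.13 ± 0.07.

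Other metallocarboxypeptidases had 4 measured genes, of which Cpq is not of the same sequence family as Cpxm1. Of these, 2 were higher and 0 lower at the adjusted p under 0.05, against 4.03% and 3.09% of all rows. This list and those below were chosen with earlier results of these data known, so their counts are a description. The median log2 ratio was 0.37 against 0.00 over all rows. Cpe, which trims peptide hormones in secretory granules, rose (0.93 ± 0.17, adjusted p = 0.0323, limma), as did Cpq, a secreted carboxypeptidase (0.59 ± 0.07, adjusted p = 0.0113). Cpd, a carboxypeptidase of the trans-Golgi network, was at -0.19 ± 0.08 and Agtpbp1, which acts on tubulin, at 0.14 ± 0.11. Cpe lost the call with the set as a random block (adjusted p = 0.0564) and without 1A, 1B, 1C, 2A or 2B (0.0591 to 0.14, at 0.76 to 1.01), and with array weights Cpe was at 0.135 and Cpq at 0.0542.

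Proteins with CUB or sushi domains, found also in Pamr1, moved both ways. Of 19 measured genes 2 were higher and 4 lower, against 4.03% and 3.09% of all rows, with a median of -0.06. The complement proteases C1s1 (3.03 ± 0.65, adjusted p = 0.0485, limma) and C1ra (2.01 ± 0.18, adjusted p = 0.00438, with 2.34 and 1.67 at its probes) rose. C1s1 was uneven, with arrays from 2.12 to 6.93. Pdgfc, a platelet-derived growth factor (-1.42 ± 0.10), Nrp2, a semaphorin receptor (-1.13 ± 0.14), Bmp1, the procollagen C-proteinase (-0.56 ± 0.07), and Dcbld2 (-0.39 ± 0.07) fell, at adjusted p from 0.00411 to 0.0318. C2 (0.86 ± 0.41), Csmd3 (0.81 ± 0.43) and Masp1 (-0.69 ± 0.18) did not pass. C2 was at 3.22 and Csmd3 at 2.90 on 1C, and without that array their fitted ratios were 0.04 and 0.22. C1s1 lost the call with the set block (adjusted p = 0.154), with array weights (0.138) and without any 1 array other than 1A (0.0621 to 0.18, at 2.94 to 3.21). Dcbld2 lost it with the block (0.0738), with weights (0.0762), with arrays scaled to equal spread, on the Cy5 arrays alone and without any 1 array other than 2C (0.0637 to 0.107, at -0.43 to -0.37), and its probes disagreed (-0.85 and 0.08).

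MAM domain proteins, the family of Mamdc2, had 4 measured genes besides it, all with negative fitted ratios, as had 3384 of all 6807 rows. Of the 4, 0 were called higher and 1 lower, against 4.03% and 3.09% of all rows. With so few genes nothing is read about the family. Nrp2, which is in both lists, fell, and Nrp1, a vascular growth factor co-receptor (-0.28 ± 0.16), Ptpru, a receptor phosphatase (-0.21 ± 0.10), and Mamdc4 (-0.06 ± 0.06) did not pass. Nrp1 was at 0.49 on 1C and between -0.66 and -0.21 on the others, and its fitted ratio was -0.54 without 1C and -0.01 without 2C.

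The Wnt pathway, in which Dickkopf proteins act, had 21 measured genes besides Dkk3, of which 1 was higher and 1 lower (median 0.05). Over all rows 7.11% were called in either direction, so the count is near that share and nothing is read about the pathway. Sfrp1, a secreted Wnt antagonist, rose (0.59 ± 0.09, adjusted p = 0.0179, limma; 0.29, 0.40 and 1.09 at its probes). Fzd2, a Wnt receptor, fell (-0.72 ± 0.13, adjusted p = 0.0274). Wnt5b (0.88 ± 0.49), Fzd4 (0.75 ± 0.23) and Csnk1a1 (0.42 ± 0.14) were the largest in size that did not pass. Wnt5b was at 4.06 on 1C and between -0.59 and 0.17 on the other arrays. Without 1C the fitted ratio was -0.09 for Wnt5b and 0.17 for Csnk1a1. Sfrp1 lost the call with the set block (0.0658), with weights (0.0747) and without 1B or 2A (0.0555 to 0.0571, at 0.58 to 0.62). Fzd2 lost it with the block (0.0695), with weights (0.118), with no dye term, on the Cy5 arrays alone and without any 1 array other than 2C (0.0516 to 0.12, at -0.78 to -0.61).

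Other secreted proteins made by mesenchymal cells, not all glycoproteins or confined to these cells, had 39 measured genes. Of these, 9 were higher and 5 lower, against 4.03% and 3.09% of all rows, with a median of 0.19. The list was chosen with earlier results of these data known, so the counts are a description and not evidence of enrichment. The higher ones beyond 2-fold were Cst3 (1.71 ± 0.20), Tnc (1.57 ± 0.14), Thbs3, a thrombospondin (1.18 ± 0.09), and Smoc2, a calcium-binding matrix protein (1.06 ± 0.11). Thbs2 (0.83 ± 0.11), Mfap5, a microfibril protein (0.81 ± 0.07), Ccdc80 (0.71 ± 0.08), Lox, which crosslinks collagen (0.62 ± 0.09), and Sfrp1 rose less. Igfbp3, which binds insulin-like growth factors (-1.11 ± 0.09), Ecm1 (-0.92 ± 0.11), Fn1, fibronectin (-0.83 ± 0.06), Smoc1 (-0.58 ± 0.09) and Timp3, a protease inhibitor (-0.55 ± 0.10), fell. Dpt, dermatopontin, was at 1.67 ± 0.46, with -1.01 on 1B and 1.83 to 2.27 on the other arrays (2.04 without 1B). Lum, lumican, was at 0.70 ± 0.17, and neither Dpt nor Lum passed the threshold. The 14 called genes had limma adjusted p from 0.00411 to 0.0326. Ccn1, a matricellular protein, was at 0.66 ± 0.21 and did not pass.

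Of these 14, Sfrp1, Smoc1 and Timp3 lost the call with the set as a block (0.0658, 0.0517 and 0.115). Besides the losses of Sfrp1 given above, Lox (0.0511 to 0.0721, at 0.51 to 0.65) and Smoc1 (0.0566 to 0.0729, at -0.60 to -0.55) lost it without 1B, 1C, 2A or 2B, Timp3 without 1A, 1B, 2A or 2B (0.0676 to 0.102, at -0.58 to -0.51) and Cst3 without 1C (0.0521, at 1.52). With array weights Sfrp1 (0.0747), Lox (0.061) and Timp3 (0.0746) lost it, and Smoc1 also lost it with no dye term and on the Cy5 arrays alone. The probes of Smoc1 disagreed (-1.39 and 0.23).

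**Figure D4:**
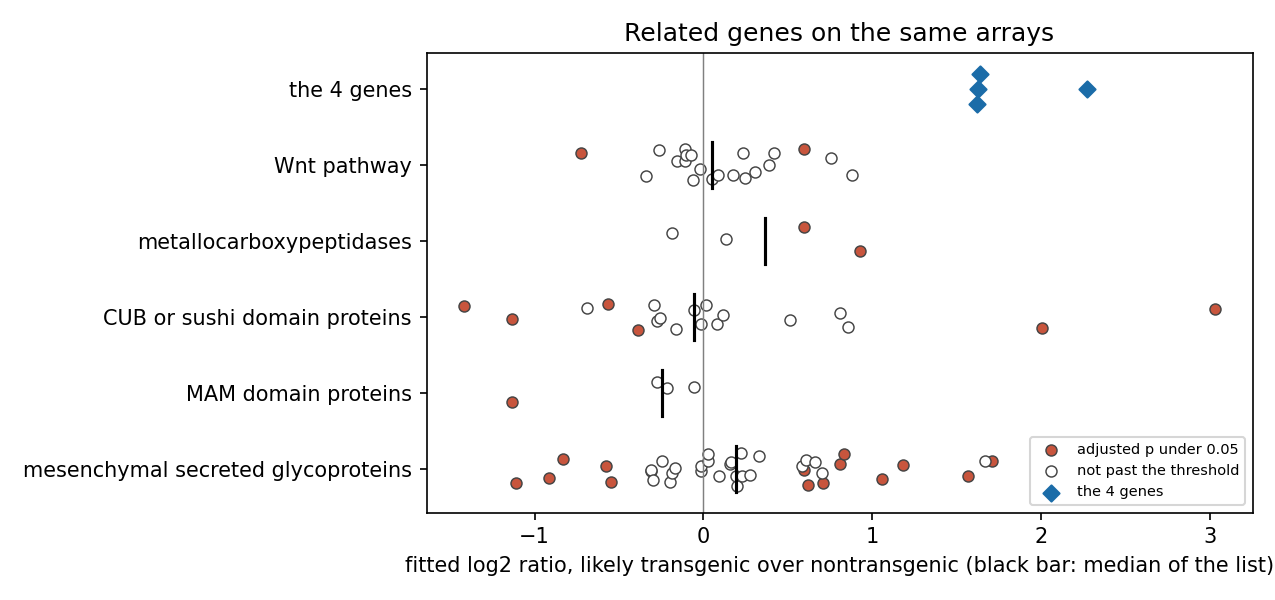
Fitted log2 ratios (x axis) of the genes in each related list (y axis, 1 point per gene; position within a row is scatter for legibility), with filled points at a limma adjusted p under 0.05 and black bars at list medians. The medians run from -0.24 for the MAM domain proteins to 0.37 for the metallocarboxypeptidases, and the 4 member genes, chosen by this contrast, lie at 1.62 to 2.27.

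Markers of the cell types an explant could hold were examined on the same arrays, as ratios; levels cannot be read from this table, and in bulk RNA more cells of a type and more RNA per cell cannot be told apart. Of 8 smooth muscle markers 2 were measured, and Cnn1, calponin 1, rose (0.59 ± 0.10, adjusted p = 0.0280, limma) while Smtn, smoothelin, was at -0.05 ± 0.08. Acta2, Myh11 and Tagln were not analysed here. Of 6 measured fibroblast markers 2 were higher and 0 lower (median 0.76, range -1.21 to 2.73). Over all rows 4.03% were called higher and 3.09% lower, and the marker lists are too small to set against these shares. Thy1, a surface glycoprotein of fibroblasts, rose (2.73 ± 0.21, adjusted p = 0.00411), as did Mfap5, while Col1a1 was at -1.21 ± 0.31 (-0.64 without 1C). The part of such cells in the ratios of the 4 genes was not tested. Of 5 measured macrophage and leukocyte, 4 endothelial and 1 adipocyte markers 0 passed, with medians of 0.01, -0.44 and -0.08. Of 3 measured epithelial markers Cdh1 rose, of 5 cartilage markers Col11a1 fell, of 3 neural markers Uchl1 and L1cam fell, and of 2 striated muscle markers Mb rose, at 0.32, -1.10, -0.46, -0.45 and 0.29. Of these marker calls Thy1, Mfap5 and Col11a1 held with the set as a block and without any 1 array, though not with the swapped signs turned, and Cnn1, Cdh1, Uchl1, L1cam and Mb did not (adjusted p from 0.0604 to 0.122 with the block).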

How the data were processed

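The authors deposited log2 ratios of 8734 probes on 6 two-colour arrays, each a competitive hybridisation of Cy3- and Cy5-labelled cDNA per the labels' protocols. How spots were scanned, corrected, normalized and divided is not given in the sources used here. Array medians lay between -0.0012 and 0.0007, so the deposited log2 values were already centred; the lowest value, -6.64, is a floor. Spot brightness was not used, and the number of arrays limits the precision.

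Platform annotation, which can be old, named 1 symbol for 7540 probes; 7493 probes matched the GRCm38.p6 gene table. Probes of 1 symbol were averaged. Rows measured on at least 4 arrays, in both orientations, were fitted with limma 3.58.1 (R 4.3.3) with transgenic and dye coefficients, and with a set coefficient added for the set comparison, at a Benjamini-Hochberg adjusted p under 0.05. A test of the members' dye terms was planned and is not given, since the choice of the genes bears on it. That choice also bears on the set comparison, where the p-values of the members are only a description. The fit was tested on simulated data. Tables and figures used Python 3.11.15, pandas 2.3.3 and matplotlib 3.10.9.

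The members, gene lists and comparisons were chosen with earlier results of these data known. Genes named are the members, the 3 genes most like each, and, in the family lists, each called gene and the 3 largest uncalled; marker genes and chromosomal neighbours were named in part beyond this rule. Alternatives left out each array, dropped the dye term, turned the swapped signs, blocked by set, set floor values to missing, required 6 arrays, scaled or weighted arrays, took probes singly, or used the Cy5 arrays alone.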

Additional observations from a re-analysis of the deposited data

Results flagged for a closer look

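Over the 4 genes and their nearest genes, 22 groups of arrays were examined for a single array far from the others, and 3 stood out. Chance gives about 1 in 20 for genes not chosen by their values. The members were chosen for high ratios on these arrays, which favours 1 very high array, and the arrays differ in spread. That rate therefore does not hold here, and nothing is concluded from the flags. Mamdc2 had a log2 ratio of 3.76 on array 1A, separated from the next array by 0.637 of its whole range over 6 arrays. C1ra had 3.20 on the same array, by 0.653 of its range over the 6 arrays and 0.936 over the 4 with transgenic RNA in Cy5. This is a mean of 2 probes, whose fitted ratios were 2.34 ± 0.30 and 1.67 ± 0.08. C1ra was picked for its likeness to Mamdc2 on these same arrays, which favours a shared high array, and its groups of 6 and 4 arrays overlap, so its values add no support to that of Mamdc2.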

How the results depend on the processing

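The transgenic log2 ratios of the 4 genes stayed above 0 under every alternative run. All 6 deposited values of each gene were above 0, which the choice of the genes favours. Apart from turning the swapped signs, no alternative could therefore give a ratio below 0, and this adds no support. The ratios moved by more than the spread between arrays only with the swapped signs turned, at 0.315 for Cpxm1, 0.590 for Pamr1 and 0.255 for Dkk3. Mamdc2 then fell from 1.62 to 0.619, which lies within its wider spread between arrays (SD 1.05). The dye terms then became 2.27, 1.64, 1.63 and 1.62 for Cpxm1, Pamr1, Dkk3 and Mamdc2 since the terms change places, and are then the contrast on which the genes were chosen. No set difference passed under any alternative. Scaling to equal spread turned it to 0.003 for Cpxm1, 0.080 for Pamr1 and 0.100 for Mamdc2, and with 1 array left out it ran from -1.01 to 0.435 for Mamdc2, the highest without 1A. Of all rows, 484 passed for the transgene, 1 with the signs turned, 197 with a random replicate block by set (correlation 0.296), 171 with array weights, 1049 on the Cy5 arrays alone, and 169 to 1689 without 1 array, the highest without 2C. For dye, 1 row passed, 484 with the signs turned, 0 with floor values missing and 0 with probes singly, and 1 to 987 without 1 array, the highest without 2C. For set, 0 passed, 3 with scaled arrays, 825 with array weights and 1 with probes singly. Causes were not tested. With 1 probe per gene, no second probe checks a member, and the signal above background behind each ratio is unknown.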
